A study of Mus musculus with 4 samples.

Results

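Cycling Sertoli cells are the dividing somatic cells of the testis cords, and they were studied here in the testes of mice at postnatal day 8. They were chosen by measured values: a droplet barcode had to hold at least 8000 unique molecular identifiers (UMIs, each 1 counted RNA molecule), at most 20% of them mitochondrial. The Sertoli genes *Cst12*, *Cst9*, *Rhox8*, *Amh* and *Aard* had to make up at least 0.3% of the UMIs, the stromal genes *Col1a1*, *Col1a2*, *Col3a1* and *Dcn* less than 0.3%, and the germ cell genes *Ddx4* and *Dazl* fewer than 10 UMIs. These limits gave 7228 Sertoli cells among 17567 barcodes of that depth. Cells with at least 3 UMIs of *Mki67* and *Top2a* together were taken as cycling, which gave 934 cells, 410 of 2887 Sertoli cells in the control library and 524 of 4341 in the Cnot3-cKO library. The 5423 Sertoli cells with 0 UMIs of *Mki67* and *Top2a* are called non-cycling below, and 871 cells with 1 or 2 UMIs were kept apart.

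The control mice, labelled wild-type, carried floxed alleles of *Cnot3* without Cre (*Cnot3* flox/flox), and the Cnot3-cKO mice carried *Cnot3* flox/flox with *Ddx4*-creER. Mice of both groups received injections of 4-hydroxytamoxifen (4OHT) that began at postnatal day 1. The labels give a last injection day of 1 and 2 for the control samples and of 3 and 4 for the Cnot3-cKO samples. On the labels, the schedule and the genotype therefore cannot be told apart. The methods give a single schedule from day 1 to day 3. *Ddx4* drives the Cre in germ cells, so Sertoli cells are not the cells in which *Cnot3* was to be deleted. Testis cells had been sorted by flow cytometry for CD9 and THY1, which enriches spermatogonia, and every share of cells below was set in part by that sort. Each genotype has 2 labelled samples whose titles differ by the prefix NS or NOV, and the methods name NextSeq and NovaSeq sequencers, so they may be runs of 1 preparation rather than separate cells. They are merged in 1 matrix of UMI counts with no record of the sample of a barcode, so each genotype was taken as 1 library. There are no replicates here, no p-value can be given, and all intervals are 95% intervals that cover counting error only.

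Sertoli cells line the seminiferous cords, feed and anchor germ cells, and in the adult seal the tubule with the blood-testis barrier. They multiply in fetal and early postnatal life under follicle-stimulating hormone, activin and insulin-like growth factors, and later stop dividing as thyroid hormone acts on them. The number reached by then sets how many germ cells a testis can carry. In a dividing cell, E2F factors switch on replication genes in S phase, and B-MYB, FOXM1 and the DREAM and MuvB complexes govern the genes of G2 and mitosis, whose promoters often hold a CCAAT box and a cell cycle homology region (CHR).

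The control library held 181550221 UMIs and the Cnot3-cKO library 168770743, with 8335 and 9232 barcodes of at least 8000 UMIs. The summed UMIs were 8077520 and 9831462 in cycling Sertoli cells and 28211996 and 42902639 in non-cycling ones. No barcode of a cycling Sertoli cell occurred in both libraries, against 18 shared among all barcodes of that depth. Scrublet called 3.17% of the control members doublets (13 of 410, exact interval 1.70 to 5.36%) and 0.142% of the non-cycling cells. Genes of immune cells reached 5 or more UMIs over 12 such genes in 2 of 410 control members and 1 of 524 Cnot3-cKO members, and in 0 of 2113 and 0 of 3310 non-cycling cells, which allows shares of up to 0.174% and 0.111%. The 2 control cells held 609 of the 625 UMIs of these genes in the control members and the Cnot3-cKO cell 470 of 505, so the values of genes that rest on them are given with and without them.

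Levels are given as CPM, the UMIs of a gene in each 1000000 UMIs of a class. *Cnot3*, which encodes a subunit of the CCR4-NOT deadenylase, was at 65.4 CPM in cycling and 63.6 in non-cycling Sertoli cells of the control library, and at 73.7 and 65.8 in the Cnot3-cKO library. Between genotypes, Cnot3-cKO over control, the log2 ratio was 0.17 (0.01 to 0.34) in cycling and 0.05 (−0.04 to 0.13) in non-cycling cells. Whether the counted 3′ tags of *Cnot3* cover the floxed part is not given in the sources used here.

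The label was checked against its markers. Of the genes that chose the members, *Mki67*, a proliferation marker, lies at chr7:135689784-135716361 (minus strand, GRCm38) and *Top2a*, which untangles DNA, at chr11:98992943-99024189 (minus). After each cell was thinned to 8000 UMIs, *Ube2c*, whose product loads ubiquitin for the anaphase-promoting complex, was seen in 83.4% of the control members against 5.44% of the non-cycling cells. *Prc1*, which bundles the microtubules of the central spindle, was seen in 85.9% against 5.02%. The Sertoli transcription factor genes *Sox9* and *Wt1* were seen in 92.7% and 92.0% of the control members. In the control cycling interstitial cells, defined below, they were seen in 10.9% and 5.61%. *Gata4*, another transcription factor gene, was seen in 65.9% of the control members against 43.9% of those cells. *Fshr*, a hormone receptor gene, was seen in 10.2% against 0%. *Cst12*, a cystatin made by Sertoli cells, was among the genes that chose the cells, and *Ddx4* among those that left cells out, so their values (100% of the control members with *Cst12* and 2.44% with *Ddx4*) follow from the rule and say nothing on the label.

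Most members lay far above the limit that chose them. The median member held 25 UMIs of *Mki67* and *Top2a* in control and 24 in Cnot3-cKO, and 297 of the 410 control members (72.4%) and 384 of the 524 Cnot3-cKO members held 12 or more. Just inside the limit, 35 control cells held exactly 3 UMIs, and just outside it 58 held 2 and 306 held 1, against 37, 97 and 410 in Cnot3-cKO. The G2/M list, 50 genes of G2 and mitosis, summed to 3750 CPM in the control cells with 3 UMIs, 1239 in those with 2, 741 in those with 1 and 422 in those with 0. In the cells with 12 or more UMIs it summed to 12597 CPM. The S list, 40 genes of DNA replication, was already at 3274 CPM in the control cells with 2 UMIs and 1982 in those with 1, against 1215 in the non-cycling cells and 3319 in the cells with 12 or more. In Cnot3-cKO cells with 2 UMIs the S list summed to 2594 CPM and the G2/M list to 1730, against 1147 and 429 in the non-cycling cells. Both lists were thus higher in the cells left just outside the limit than in the non-cycling cells, in both libraries.

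**Figure D1:**
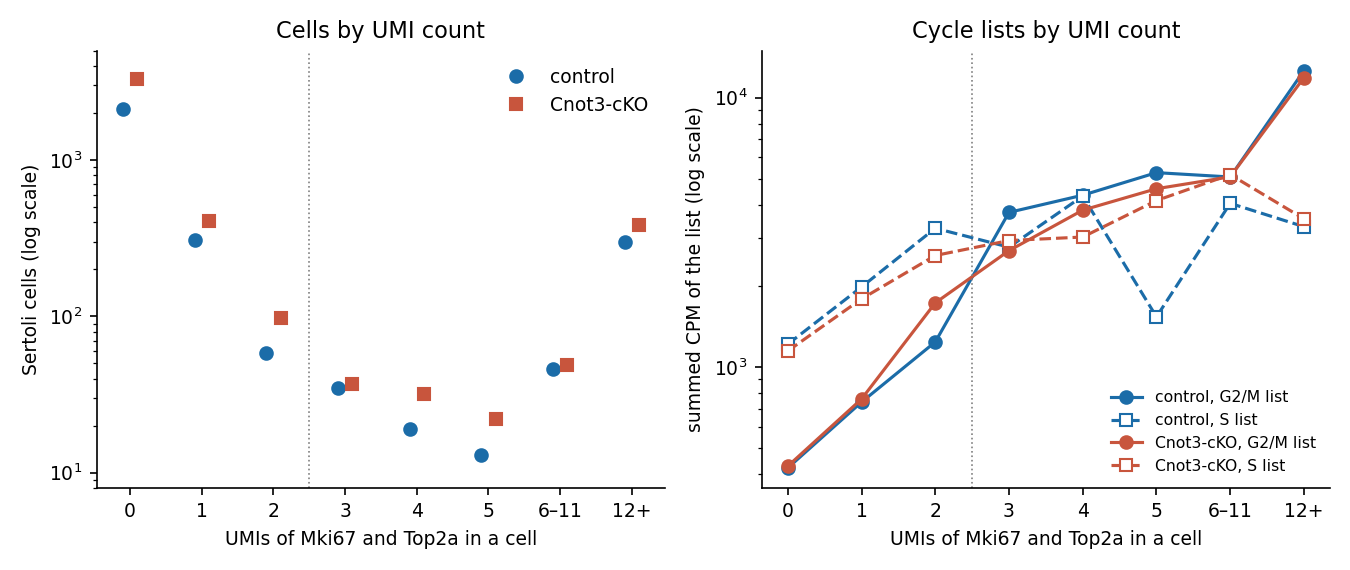
Left, Sertoli cells (log scale) by the UMIs of *Mki67* and *Top2a* they hold; right, summed CPM (log scale) of the S and G2/M lists in the same cells, with the limit of membership as a dotted line. The S list is at 1982 CPM at 1 UMI in control, the G2/M list reaches 12597 CPM at 12 or more, and the low S value at 5 UMIs in control rests on 13 cells.

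Members made up 14.2% (12.9 to 15.5%) of the control Sertoli cells and 12.1% of the Cnot3-cKO Sertoli cells. They were deeper than non-cycling cells, with a median of 18826 against 12798 UMIs in control and 17865 against 12485 in Cnot3-cKO. When every cell was thinned to 8000 UMIs before the limit was applied, the share was 12.2% (10.99 to 13.4%) in control and 10.5% in Cnot3-cKO. Thinned in this way, 3.81% of the control Sertoli cells of 8000 to 12000 original UMIs passed the limit, and 50.2% of those over 20000. Depth thus remained tied to membership after thinning, and the part of doublets or of RNA content in that was not tested. Members also held a smaller mitochondrial percentage, with a median of 9.02% against 10.2% in control, and with a mitochondrial limit of 10% the share was 19.99% in control and 16.9% in Cnot3-cKO. The same marker limit gave 8.60% (321 of 3734) in control cells with the stromal limits and 82.0% (1087 of 1325) in control germ cells, in a suspension sorted for germ cells. On thinned cells these shares were 7.74% and 35.9%.

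The genes of G2 and mitosis set the members furthest apart from non-cycling Sertoli cells. Of 10720 genes with at least 100 UMIs over both classes in each library, 501 were at least 2-fold higher in members in both libraries, 4.67% of those tested, and 57 were at least 2-fold lower, 0.532%. These counts describe cells that were chosen by *Mki67* and *Top2a* and support nothing on their own. All 50 genes of the G2/M list passed the minimum and 49 were at least 2-fold higher, with a median log2 ratio of 5.53 in control and 5.63 in Cnot3-cKO, beside 0.03 and 0.04 over all genes. *Ube2c* was at 968 CPM in cycling and 7.16 in non-cycling control cells, and at 837 and 6.53 in Cnot3-cKO. Its log2 ratio was 7.08 (6.88 to 7.29) in control, with an interval of 6.83 to 7.18 in Cnot3-cKO. *Cdk1*, the kinase that drives entry into mitosis, was at 613 against 26.8 CPM in control and 584 against 28.3 in Cnot3-cKO. *Birc5*, the survivin subunit of the chromosomal passenger complex, was at 446 against 6.06 CPM in control, and *Ccnb1*, cyclin B1, at 168 against 2.20. The exception was *Pttg1*, which encodes securin, the inhibitor of separase: it was at 65.9 against 63.2 CPM in control and 63.7 against 63.2 in Cnot3-cKO, log2 ratios of 0.06 (−0.08 to 0.20) and 0.01 (−0.12 to 0.14).

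Of the 12 genes chosen by the size of the lower limit of their ratio, 6 lie outside that list. *Iqgap3*, a scaffold protein gene, had log2 ratios of 7.98 (6.92 to 9.30) and 7.90 (7.08 to 8.86) in control and Cnot3-cKO. *Mxd3*, a MAX partner of proliferating cells, was at 50.5 against 0.319 CPM in control, and the DNA glycosylase gene *Neil3* at 76.8 against 0.461. The replication-dependent histone gene *Hist1h3c*, which has near-identical copies, was at 60.9 against 0.390 CPM. *Depdc1a*, *Kif18b*, *Hmmr*, *Nusap1*, *Kif11*, *Kif4*, *Prc1* and *Ube2c* completed the 12, and the 12 log2 ratios lay between 6.61 and 8.13 over both libraries.

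The promoters of the G2/M genes are shown because the members' largest differences fall on a gene set with known promoter words. RefSeq windows of 300 bases, 250 before to 50 after a gene's start in build GRCm38, were searched on both strands for CHR words (TTTGAA or TTCGAA), for CCAAT, and for E2F-type words (TTTCCCGC, TTTGGCGC, TTTCGCGC or TTTGCCGC), with overlapping matches counted (TTCGAA reads alike on both strands and was counted once). Windows were found for 42 of the 50 G2/M genes, and 32 of them (76.2%) held a CHR word, 31 (73.8%) CCAAT and 28 (66.7%) both, against 21.7%, 41.1% and 8.61% of 27025 genes with a window. Of 29 S genes with a window, 6 held a CHR word, 19 CCAAT and 13 (44.8%) an E2F-type word, which 704 of the 27025 genes held. Over the genes at least 2-fold higher in members, 359 had a window and 42.3% held a CHR word. Among the 42 lower genes with a window 11.9% did. A match is a description of letters and not a bound site. The windows below were chosen after their matches were seen, and capitals mark the searched words on either strand. For the G2/M genes these are Ube2c at chr2:164769679-164769978 (plus strand), Prc1 at chr7:80294201-80294500 (plus, of 2 windows the one with more matches), Cdk1 at chr10:69352863-69353162 (minus) and Ccnb2, the cyclin B2 gene, at chr9:70421505-70421804 (minus), each printed 5′ to 3′ along its gene.
Ube2c: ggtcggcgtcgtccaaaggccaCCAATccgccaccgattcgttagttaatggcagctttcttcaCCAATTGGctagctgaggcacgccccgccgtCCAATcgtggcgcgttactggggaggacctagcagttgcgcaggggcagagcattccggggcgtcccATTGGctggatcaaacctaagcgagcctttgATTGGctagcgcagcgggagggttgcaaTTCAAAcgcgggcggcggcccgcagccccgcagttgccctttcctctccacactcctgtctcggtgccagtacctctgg
Prc1: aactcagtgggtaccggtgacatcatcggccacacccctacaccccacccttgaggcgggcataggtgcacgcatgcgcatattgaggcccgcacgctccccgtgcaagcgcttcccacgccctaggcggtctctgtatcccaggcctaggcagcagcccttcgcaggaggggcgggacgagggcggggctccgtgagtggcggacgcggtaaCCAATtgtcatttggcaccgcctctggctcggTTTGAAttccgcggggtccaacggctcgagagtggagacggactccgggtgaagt
Cdk1: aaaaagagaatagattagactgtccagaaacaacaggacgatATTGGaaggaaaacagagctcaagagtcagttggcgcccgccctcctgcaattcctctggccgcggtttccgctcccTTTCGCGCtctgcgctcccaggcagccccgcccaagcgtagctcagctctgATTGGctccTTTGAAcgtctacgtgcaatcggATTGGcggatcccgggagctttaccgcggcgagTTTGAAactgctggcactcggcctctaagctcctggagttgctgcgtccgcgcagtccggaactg
Ccnb2: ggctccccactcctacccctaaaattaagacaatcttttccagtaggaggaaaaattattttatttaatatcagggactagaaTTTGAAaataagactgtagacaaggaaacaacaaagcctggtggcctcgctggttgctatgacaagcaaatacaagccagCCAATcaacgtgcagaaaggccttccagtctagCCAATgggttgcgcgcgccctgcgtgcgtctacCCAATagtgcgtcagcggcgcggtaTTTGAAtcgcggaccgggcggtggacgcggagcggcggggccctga
The CHR word of Ube2c began 29 bases before the start and that of Prc1 5 bases before it, while Cdk1 held CHR words 71 and 15 bases before the start and an E2F-type word as well. Nusap1, at chr2:119618048-119618347 (plus), which encodes a spindle-associated protein and was among the 12 genes above, and Pttg1, at chr11:43425932-43426231 (minus), the list's exception, held none of the words.
Nusap1: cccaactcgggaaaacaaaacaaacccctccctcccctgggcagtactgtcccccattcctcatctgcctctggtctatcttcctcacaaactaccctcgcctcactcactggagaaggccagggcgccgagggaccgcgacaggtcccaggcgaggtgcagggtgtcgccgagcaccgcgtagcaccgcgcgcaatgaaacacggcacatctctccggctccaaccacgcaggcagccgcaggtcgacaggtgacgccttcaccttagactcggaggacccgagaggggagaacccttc
Pttg1: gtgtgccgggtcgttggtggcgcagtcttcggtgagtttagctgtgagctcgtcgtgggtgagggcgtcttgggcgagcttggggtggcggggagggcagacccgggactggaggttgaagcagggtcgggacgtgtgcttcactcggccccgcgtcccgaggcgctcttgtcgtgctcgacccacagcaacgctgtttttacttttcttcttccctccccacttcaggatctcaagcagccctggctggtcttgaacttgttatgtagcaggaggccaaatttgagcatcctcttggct
A window without a match thus occurred both for a gene far higher in members and for the gene that was level. For the S list, the genes of the replicative helicase subunits Mcm5, at chr8:75109259-75109558 (plus), and Mcm6, at chr1:128359656-128359955 (minus), held E2F-type words and CCAAT and no CHR word.
Mcm5: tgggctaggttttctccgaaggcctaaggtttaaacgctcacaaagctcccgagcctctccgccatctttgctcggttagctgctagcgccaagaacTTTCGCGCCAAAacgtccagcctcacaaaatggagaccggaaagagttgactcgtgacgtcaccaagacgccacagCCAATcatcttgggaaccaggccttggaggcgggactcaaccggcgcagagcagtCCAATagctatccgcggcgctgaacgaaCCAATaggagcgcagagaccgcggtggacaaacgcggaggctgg
Mcm6: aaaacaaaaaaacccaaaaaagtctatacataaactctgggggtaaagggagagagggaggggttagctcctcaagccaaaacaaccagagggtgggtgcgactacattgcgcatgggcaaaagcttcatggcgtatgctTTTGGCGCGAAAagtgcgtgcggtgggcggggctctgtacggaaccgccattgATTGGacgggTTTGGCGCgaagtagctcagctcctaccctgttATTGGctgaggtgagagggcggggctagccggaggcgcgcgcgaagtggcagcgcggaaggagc

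S-phase genes were higher in the members by smaller ratios, and 5 were under 2-fold. Of the 40 S genes, 39 passed the minimum and 34 were at least 2-fold higher, with a median log2 ratio of 1.48 in control and 1.81 in Cnot3-cKO. *Rrm2*, the regulated subunit of ribonucleotide reductase, was at 67.8 against 1.74 CPM in control and 60.9 against 1.42 in Cnot3-cKO. *Mcm5* was at 58.6 against 21.4 CPM in control and 65.0 against 19.2 in Cnot3-cKO, log2 ratios of 1.45 (1.27 to 1.63) and 1.76 (1.61 to 1.91). After thinning it was seen in 36.1% of the control members, 26.6% of the cells with 1 or 2 UMIs of *Mki67* and *Top2a* and 12.5% of the non-cycling cells. The 5 S genes under 2-fold in at least 1 library were *Ung*, *Mcm6*, *Slbp*, *Mcm2* and *Rfc2*. *Ung*, the uracil-DNA glycosylase gene, was at 60.7 against 60.0 CPM in control, a log2 ratio of 0.02 (−0.13 to 0.16), and at 67.3 against 58.4 in Cnot3-cKO.

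Chromatin and tubulin genes of dividing cells were also higher. Of 20 such genes, 19 were at least 2-fold higher in both libraries, with medians of 1.78 and 1.73. *Hmgb2*, a chromatin protein gene, was at 1232 against 137 CPM in control, and *Stmn1*, which encodes the microtubule regulator stathmin, at 1865 against 294. The exception was *Hmgb3*, at 1312 against 1112 CPM in control and 1215 against 1052 in Cnot3-cKO, log2 ratios of 0.24 (0.21 to 0.27) and 0.21 (0.18 to 0.24). The genes that control entry into the cycle split. Of 30 cyclins, kinases, inhibitors, Rb and E2F genes, 23 passed the minimum, 8 were at least 2-fold higher and 0 were lower. The 8 were the transcription factor genes *E2f1*, *E2f7*, *Foxm1* and *Mybl2*, the pocket protein gene *Rbl1*, the inhibitor genes *Cdkn2c* and *Cdkn2d*, and *Ccng2*, a cyclin linked to arrest. *Foxm1* was at 50.4 against 1.38 CPM in control and *E2f1* at 42.3 against 11.6. *Cdkn2c*, which encodes the CDK4 and CDK6 inhibitor p18, was at 155 against 6.95 CPM in control and 142 against 8.09 in Cnot3-cKO, log2 ratios of 4.48 (4.26 to 4.70) and 4.14 (3.97 to 4.31). *Cdkn1b*, which encodes p27, an inhibitor linked to the end of Sertoli cell division, was also higher in members, at 48.2 against 30.9 CPM in control and 51.7 against 34.5 in Cnot3-cKO. The D-type cyclin gene *Ccnd2* was lower, at 361 against 526 CPM in control and 312 against 484 in Cnot3-cKO, and so was *Mycn*, a growth-driving transcription factor gene, with log2 ratios of −0.67 (−0.81 to −0.53) and −0.81 (−0.94 to −0.68).

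Some of the 57 genes at least 2-fold lower in members are described here, with no theme tested. *Aldoa*, the glycolytic aldolase, was at 267 against 588 CPM in control and 281 against 602 in Cnot3-cKO. Its relative *Aldoc* had log2 ratios of −1.97 (−2.78 to −1.26) and −2.37 (−3.22 to −1.63). *Fabp3*, a fatty acid binding protein gene, was at 131 against 295 CPM in control and 107 against 244 in Cnot3-cKO. *Mxd4*, a MAX partner that opposes MYC, was at 34.4 against 84.3 CPM in control and 42.9 against 104 in Cnot3-cKO, the reverse of its relative *Mxd3*. *Pik3ip1*, an inhibitor of PI3 kinase, had ratios of −1.15 and −1.14, and *Satb1*, a chromatin organiser, −1.59 and −2.05. The other genes named by the size of their upper limit were *Tcp11l2*, at 1.36 against 7.09 CPM in control, *Tmem150a*, *Neu1*, *Zc2hc1c*, *Aqp5* and *Aox1*.

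The genes that make a cell a Sertoli cell differed little between members and non-cycling cells. The same limit on Sertoli genes chose both classes, which fixed in part how near they lay to each other. Of 22 identity and hormone receptor genes, 17 passed the minimum and 0 were 2-fold higher or lower, with medians of −0.12 and −0.07. Over all tested genes 4.67% were higher and 0.532% lower, so a count of 0 in so short a list lies near those shares. *Sox9* was at 487 against 546 CPM in control and 450 against 515 in Cnot3-cKO, and *Wt1* at 363 against 375 and 328 against 320. *Dhh*, the hedgehog ligand sent to Leydig and myoid cells, was at 183 against 238 CPM in control and 191 against 250 in Cnot3-cKO. *Fshr*, the follicle-stimulating hormone receptor gene, was at 13.7 against 15.6 CPM in control and 20.4 against 19.2 in Cnot3-cKO. The summed CPM of the 22 genes was 2553 in members against 2844 in non-cycling control cells. The genes used by the rule were lower in members in both libraries, *Amh* by −0.16 and −0.13, *Cst12* by −0.31 and −0.23 and *Rhox8* by −0.51 and −0.52 on the log2 scale. Their summed share of a cell's UMIs had a median of 0.762% in control members and 0.957% in non-cycling cells, so members lay nearer to the limit of 0.3%.

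Of 30 secreted or abundant Sertoli products, 28 passed the minimum and 0 were 2-fold higher or lower in both libraries, with medians of −0.17 and −0.18. *Hsd17b1*, which converts steroids, was at 104 against 177 CPM in control and 147 against 238 in Cnot3-cKO. *Trf*, which encodes the iron carrier transferrin, was at 8.17 against 4.11 and 7.63 against 3.64, log2 ratios of 0.99 (0.53 to 1.44) and 1.07 (0.65 to 1.48). *Inha*, the inhibin alpha subunit gene, and *Clu*, the clusterin gene, had ratios of −0.18 and −0.12 in control. Of 24 junction genes 20 passed, 0 by 2-fold, with medians of 0.08 and 0.11. Both counts of 0 lie near the shares over all genes, 4.67% higher and 0.532% lower. *Nectin3*, an adhesion partner toward germ cells, was at 41.0 against 23.0 CPM in control and 42.2 against 21.5 in Cnot3-cKO. The keratin gene *Krt18* was lower, at 19.8 against 31.4 and 14.5 against 22.5. *Cldn11*, *Ocln* and *Gja1*, of the barrier and its gap junctions, had control ratios of 0.29, −0.09 and −0.08.

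**Figure D2:**
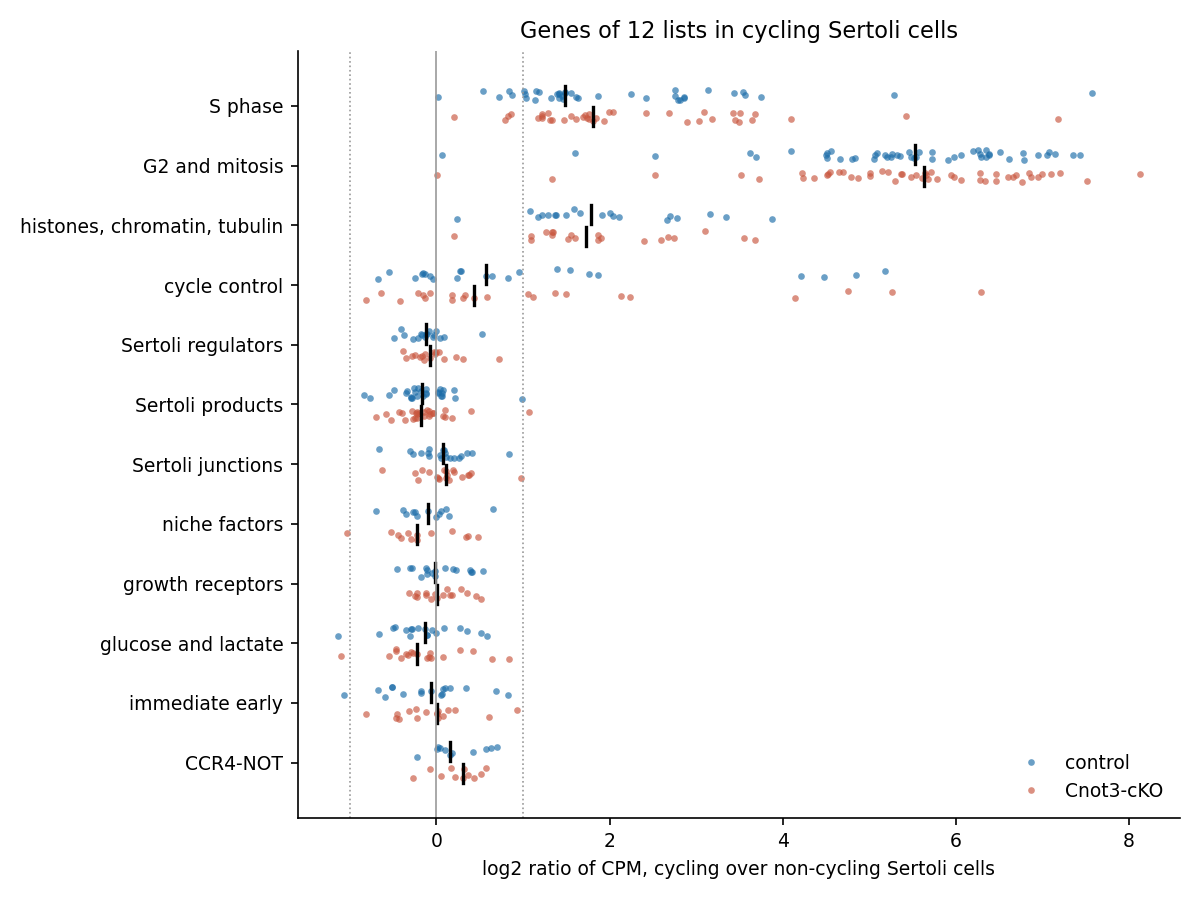
Log2 ratio of CPM in cycling over non-cycling Sertoli cells for each gene with enough UMIs in 12 lists, 1 point per gene and library, with the median as a black bar and 2-fold as dotted lines. The G2 and mitosis list has medians of 5.53 and 5.63, while the Sertoli regulators, products and junction genes lie around 0.

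Among 22 niche ligand and retinoid genes, 13 passed the minimum and 0 were 2-fold higher or lower in both libraries. *Gdnf* (chr15:7810846-7837575, plus strand), the growth factor for spermatogonial stem cells, was at 31.4 against 19.99 CPM in control and 40.9 against 29.4 in Cnot3-cKO, log2 ratios of 0.65 (0.43 to 0.87) and 0.48 (0.31 to 0.64). *Kitl*, the ligand for differentiating spermatogonia, had ratios of 0.02 and −0.06. None of 17 tested growth factor and activin receptor genes and none of 17 immediate early genes passed 2-fold in both libraries. Such counts lie near the shares over all genes, 4.67% higher and 0.532% lower. *Klf6*, of the last group, was at 178 against 100 CPM in control and 187 against 97.9 in Cnot3-cKO. Of 19 glucose and lactate genes, *Aldoa* alone passed, and the medians were −0.14 and −0.23. The lactate dehydrogenase genes *Ldha* and *Ldhb*, which serve the supply of lactate to germ cells, had control ratios of −0.05 and −0.11. The 11 CCR4-NOT genes had medians of 0.16 and 0.30, with *Cnot6*, *Cnot9* and *Cnot6l* at 0.57, 0.63 and 0.70 in control. The p53 targets had medians of −0.13 and −0.28 over 9 genes.

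Markers of other cells were low, apart from *Fabp3* of the Leydig list, *Ptn* of the stromal list and the summed myoid markers. Of 16 germ cell markers 3 passed the minimum, 0 at 2-fold, and the list summed to 73.2 CPM in control members, 66.3 in non-cycling cells and 921 in barcodes of at most 100 UMIs, which hold free RNA. The 12 stromal markers summed to 163 CPM in control members, 115 in non-cycling cells and 5286 in the cycling interstitial cells. Of the 7 stromal genes tested, *Ptn*, which encodes the growth factor pleiotrophin, was at least 2-fold higher, at 94.1 against 33.1 CPM in control and 76.3 against 31.1 in Cnot3-cKO. Peritubular myoid markers summed to 194 against 177 CPM in control and 257 against 229 in Cnot3-cKO. In the cycling interstitial cells they summed to 3474 CPM in control and 3316 in Cnot3-cKO. The 8 Leydig markers summed to 140 CPM in control members, 306 in non-cycling cells and 34.0 in the cycling interstitial cells. Of these markers 2 passed, of which *Fabp3* was lower in members. It made up most of the sum, at 131 CPM in control members, 295 in non-cycling cells and 19.8 in the cycling interstitial cells. The 8 macrophage markers, of which 0 passed, summed to 7.55 against 2.48 CPM in control and 37.5 against 3.10 in Cnot3-cKO, where 1 immune-gene cell is among the members, and to 2.12 and 3.27 CPM in control and Cnot3-cKO members without the immune-gene cells.

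Members differed among themselves in the balance of S and G2/M genes. They were divided by the G2/M list's part of the UMIs of both lists in a cell, with limits at 0.333 and 0.667, into ranges of a score and not types. In control, 52 members (12.7%) were S-rich, 89 (21.7%) lay between and 269 (65.6%) were G2/M-rich, and in Cnot3-cKO the counts were 68 (13.0%), 145 (27.7%) and 311 (59.4%). Within 0.05 of a limit lay 50 control and 78 Cnot3-cKO members. The median depth was 17884, 18563 and 19476 UMIs in the 3 control ranges. Scrublet called 0%, 7.87% and 2.23% of them doublets, so called doublets were most frequent between the limits, and their part in that range was not tested. Since the rule asked for *Mki67* and *Top2a*, which stood at 99.2 and 327 CPM in S-rich and at 552 and 898 in G2/M-rich control members, cells with many S gene UMIs and too few of these are outside the members.

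**Figure D3:**
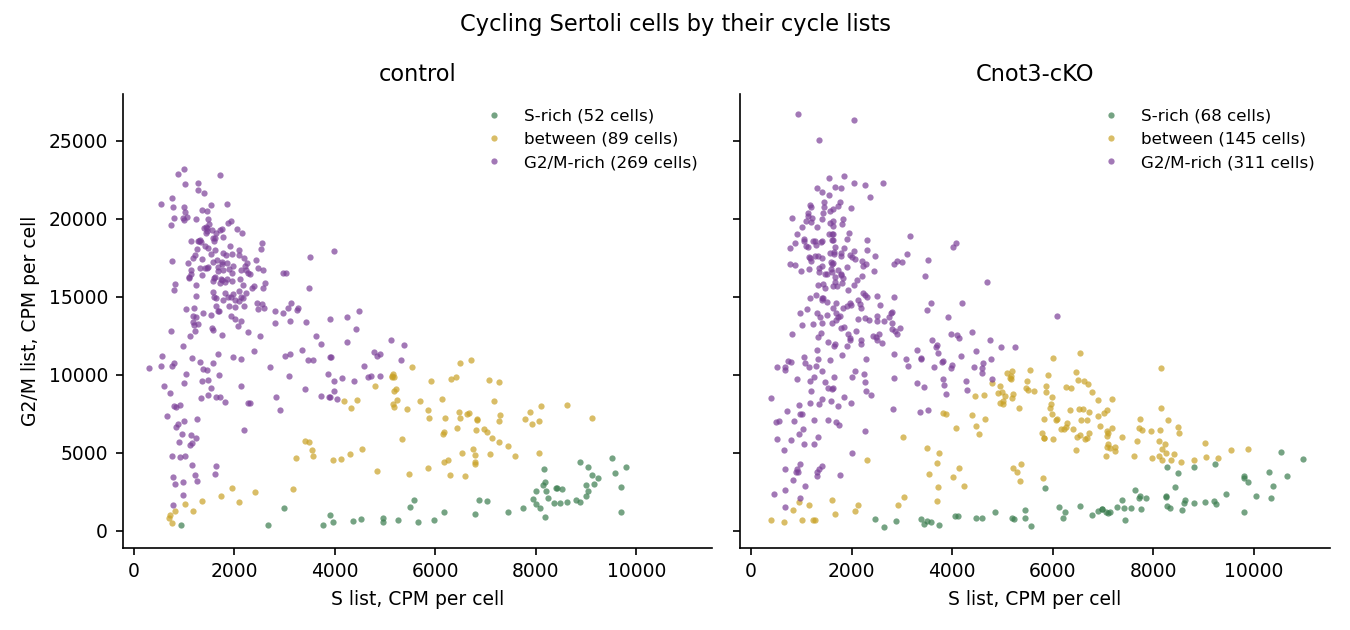
Each point is a cycling Sertoli cell, with the CPM of its S list across and of its G2/M list upward, coloured by range. The S-rich cells lie along the lower axis, the G2/M-rich cells reach over 20000 CPM of G2/M genes, and the cells between form a band from one to the other.

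S genes that were under 2-fold over all members were high in S-rich members. *Ung* was at 225 CPM in S-rich, 78.3 in between and 19.9 in G2/M-rich control members, against 60.0 in non-cycling cells. *Mcm6* was at 306, 137 and 47.1 CPM, against 70.4 in non-cycling cells. Both therefore stood above the non-cycling level in S-rich and below it in G2/M-rich members, and the same order held in Cnot3-cKO with 286, 67.4 and 22.1 CPM for *Ung*. Of the mitotic genes, *Cenpa*, the centromeric histone gene, went from 4.51 to 693 CPM and *Ccnb1* from 2.71 to 248 between the S-rich and the G2/M-rich control members, while *Pttg1* was at 46.0 and 75.5. These lists made the ranges, so the values are a description.

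Outside the S and G2/M lists, 7126 genes had enough UMIs, of which 164 (2.3%) were at least 2-fold higher and 95 (1.33%) at least 2-fold lower in G2/M-rich than in S-rich members in both libraries. *E2f1* was at 126 CPM in S-rich and 10.7 in G2/M-rich control members and at 135 and 13.4 in Cnot3-cKO. *Ccnd3*, a D-type cyclin gene, was at 55.0 and 17.6 in control, and the lactate dehydrogenase gene *Ldha* at 140 and 66.5. Of 20 cycle control genes tested, 4 were higher and 2 lower in G2/M-rich members. The 4 were *Foxm1*, *Cdkn2c*, *Cdkn2d* and *Ccng2*. *Ccng2* was at 5.41 CPM in S-rich, 42.8 in between and 65.9 in G2/M-rich control members. *Cdkn1b* was at 40.6 and 55.4 CPM in control and 30.9 and 63.9 in Cnot3-cKO, with a control log2 ratio of 0.45 (−0.01 to 0.94). Of 19 chromatin and tubulin genes 6 were higher, among them *Tubb4b*, a beta tubulin gene, at 229 CPM in S-rich and 1600 in G2/M-rich control members.

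Sertoli genes varied little over the ranges, as did most genes. Of 13 identity genes and 26 products tested, 0 differed by 2-fold in both libraries. Over all 7126 genes 2.3% were higher and 1.33% lower in G2/M-rich members, so a count of 0 lies near those shares. The products summed to 20690, 20207 and 21799 CPM in the 3 control ranges. *Sox9* was at 488, 548 and 466 CPM and *Wt1* at 364, 350 and 368. The rule's own Sertoli genes summed to 9133 CPM in S-rich and 7490 in G2/M-rich control members. Of 6 niche genes tested *Gdnf* was higher in G2/M-rich members, at 18.04, 15.4 and 39.7 CPM in control and 22.7, 21.2 and 53.4 in Cnot3-cKO, log2 ratios of 1.14 (0.47 to 1.88) and 1.23 (0.67 to 1.84). Among junction genes the keratin gene *Krt8* was higher, with ratios of 1.31 (0.33 to 2.48) and 1.64 (0.62 to 2.89), and among immediate early genes *Klf6*, with 1.47 (1.15 to 1.80) and 1.21 (0.94 to 1.49). Genes chosen after their values were seen were *Cdca7*, a replication-linked gene, at 94.7 CPM in S-rich and 7.28 in G2/M-rich control members, and *Cd9*, which encodes a surface protein used for the sort, at 52.3 and 204 CPM in control and 63.4 and 190 in Cnot3-cKO. *Thy1*, the other sort marker, had 8 UMIs in 2 control members and 1 UMI in Cnot3-cKO members.

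**Figure D4:**
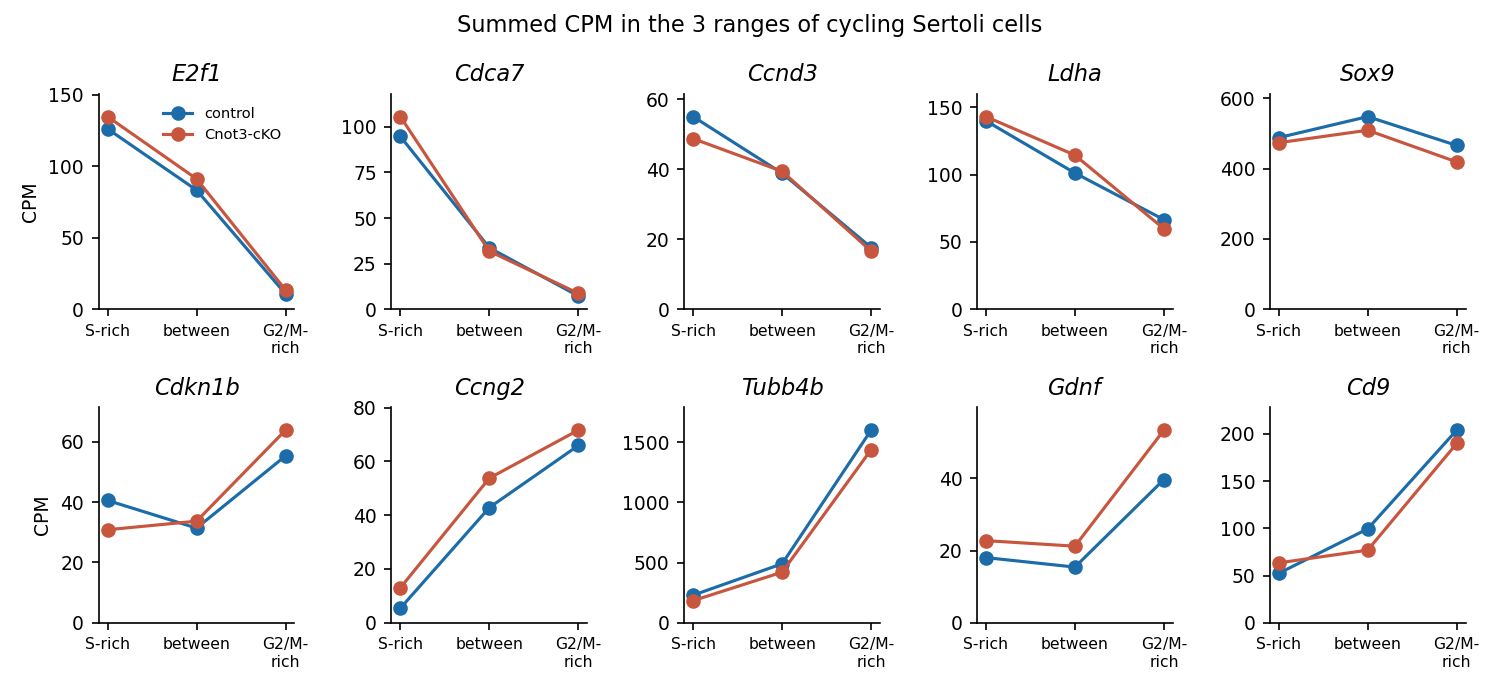
Summed CPM of 10 genes in S-rich, between and G2/M-rich cycling Sertoli cells of both libraries. *E2f1*, *Cdca7*, *Ccnd3* and *Ldha* are lower in G2/M-rich cells, *Ccng2*, *Tubb4b*, *Gdnf* and *Cd9* higher, and *Sox9* lies between 419 and 548 CPM in all 6 groups.

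Cycling interstitial cells, chosen by the same depth and cycle limits with the stromal genes at 0.3% or more and the Sertoli genes under 0.3%, numbered 321 in control and 228 in Cnot3-cKO. Of 9604 genes tested, 1404 (14.6%) were at least 2-fold higher and 955 (9.94%) at least 2-fold lower in cycling Sertoli cells in both libraries. The median log2 ratio of Sertoli over interstitial cells was −0.18 and −0.10 for the S list and 0.08 and −0.05 for the G2/M list, in control and Cnot3-cKO. All genes had 0.26 and 0.28, so both lists lay below that. The same limit on *Mki67* and *Top2a* chose both classes, which had fixed in part how near the cycle lists lay to each other. Single cycle genes differed. *Ube2c* was higher in cycling Sertoli cells by 0.86 (0.81 to 0.92) in control, *Dut*, which clears dUTP, by 1.21, and *Pimreg*, a mitotic regulator gene, was at −1.03. *Hmgb3*, under 2-fold between cycling and non-cycling Sertoli cells, was higher than in cycling interstitial cells by 2.81 (2.73 to 2.90). Of the genes of cycle entry, *Ccnd2*, *Mycn* and *Cdk6* had control ratios of 1.53, 2.24 and 1.85, and *Ccnd3* and *Cdkn1c*, which encodes the inhibitor p57, −2.51 and −5.92. The tubulin genes *Tuba1c* and *Tubb6* had ratios of 1.61 and −3.95. Of the Sertoli lists, 10 of 18 regulators and 24 of 27 products were at least 2-fold higher, as the choice of both classes by such genes had fixed in part.

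Between the libraries, cycling Sertoli cells of Cnot3-cKO and control differed in few genes. Of 9754 genes with at least 100 UMIs over both, 118 (1.21%) were at least 1.5-fold higher and 59 (0.605%) at least 1.5-fold lower in Cnot3-cKO, and the median ratio was 0.04. With 1 library per genotype, a difference between mice or preparations and one of genotype cannot be told apart. The last injection days on the labels differ between the genotypes as well. The cycle lists differed little. The median of Cnot3-cKO over control, on the log2 scale, was 0.11 in members and −0.08 in non-cycling cells for the S list, and −0.12 and −0.11 for the G2/M list. Of 39 S genes tested 1 was at least 1.5-fold higher, *Cdc6*, the replication licensing gene, at 10.5 CPM in the control library and 16.1 in the Cnot3-cKO library, and of 50 G2/M genes 0 differed by that size.

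The named genes with the largest differences are given in 2 parts, with those that rested on few members second. The parts overlap, since some of the second also kept their sign in non-cycling Sertoli cells. *Slc38a9* (chr13:112660751-112738749, plus strand), the lysosomal arginine sensor gene of the mTORC1 pathway, was at 38.4 CPM in the control library and 82.7 among Cnot3-cKO members. Its log2 ratio was 1.11 (0.92 to 1.30), with 0.93 in non-cycling cells and 1.05 in barcodes of at most 100 UMIs, which hold free RNA. It was seen in 46.8% and 72.5% of the members, and the shares of this paragraph are on cells that were not thinned. *Dis3*, the catalytic exosome subunit gene, was at 21.3 and 42.2 CPM in members, a ratio of 0.99 (0.73 to 1.25), with 0.70 in non-cycling cells. *Klf2*, a transcription factor gene, and *Lima1*, an actin-binding protein gene, had ratios of 1.22 and 1.06, with 0.94 and 0.62 in non-cycling cells. *Sp5* (chr2:70474923-70477729, plus strand), a target of Wnt signals, was at 46.9 CPM in control members and seen in 43.7% of them, against 13.7% in Cnot3-cKO, a ratio of −1.97 (−2.28 to −1.67), with −2.13 in non-cycling cells and −0.98 in those barcodes. The histocompatibility genes *H2-D1*, *H2-Q7* and *H2-K1*, a family whose members share sequence, had ratios of −1.64, −1.87 and −1.28, with −2.02, −2.75 and −1.19 in non-cycling cells. *Tagln*, a smooth muscle gene, was at 5.57 CPM among control and 26.5 among Cnot3-cKO members, seen in 3.90% and 8.21%, with a ratio of 2.25 (1.79 to 2.74) and of 2.75 in non-cycling cells. Its 3 richest cells held 32 of its 45 UMIs in control and 140 of 261 in Cnot3-cKO members. In non-cycling cells they held 30 of 108 in control and 238 of 1108 in Cnot3-cKO. *Acta2*, another smooth muscle gene, had ratios of 0.68 in members and 0.93 in non-cycling cells, and both genes were near 0 or below in barcodes of at most 100 UMIs, with −0.09 and −0.20. Of the 5 myoid markers tested 2 were at least 1.5-fold higher, and the part of myoid cells or their RNA was not tested. All the genes of this paragraph had the same sign in non-cycling cells of the same libraries.

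Other differences rested on few cells. *Rgs5*, a pericyte gene, had 0 UMIs in control members and 108 in Cnot3-cKO members, 107 of them in 1 cell. *Pf4*, a platelet and macrophage gene, had 3 and 171 UMIs, 168 of them in 1 cell, a log2 ratio of 5.55 (3.98 to 7.84), and 3 and 3 UMIs without the immune-gene cells. *Apoe*, a lipid carrier gene of macrophages, had a ratio of 2.25 with 309 of its 412 Cnot3-cKO UMIs in 1 cell, and 0.25 without the cells with immune genes. On the other side, *Xcl1*, a lymphocyte chemokine gene, had 122 UMIs in 2 control cells and 0 in Cnot3-cKO, *Cd52* had 269 UMIs in 2 control cells, and *S100a4* 130 in 3. Without the immune-gene cells *Xcl1* and *Cd52* had 0 UMIs in control members and *S100a4* had 1. In non-cycling cells the ratios were 1.29 for *Pf4*, on 7 and 26 UMIs, 0.48 for *Apoe* and −2.19 for *Cd52*, on 6 and 2 UMIs. There *S100a4* was at −0.02 and *Xcl1* had 0 UMIs in both libraries. *S100a6* had a ratio of −2.96 with 149 of 173 control UMIs in 3 cells, and −0.50 in non-cycling cells, and it had 26 UMIs in each library without the immune-gene cells. With the immune-gene cells left out, 114 genes were higher and 53 lower by 1.5-fold.

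**Figure D5:**
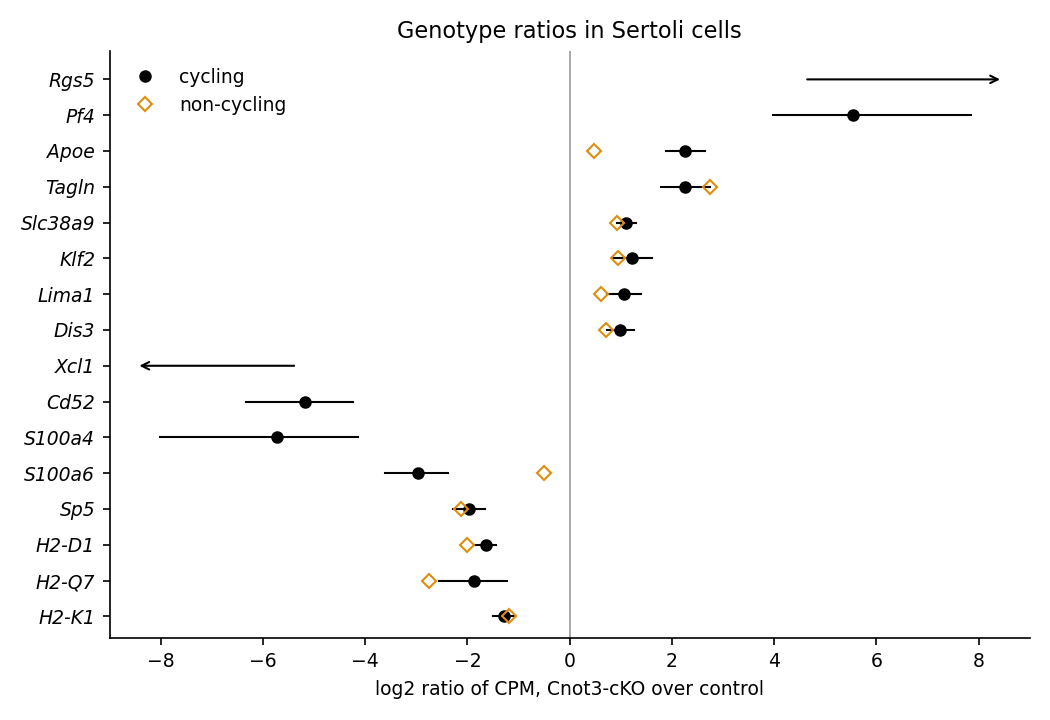
Log2 ratio of CPM, Cnot3-cKO over control, for the 16 named genes in cycling Sertoli cells (black, with counting intervals) and in non-cycling ones with at least 100 UMIs (open diamonds). Arrows mark *Rgs5* and *Xcl1*, with 0 UMIs in 1 library, and *Slc38a9*, *Dis3*, *Klf2*, *Lima1*, *Sp5* and the histocompatibility genes have both points on the same side of 0.

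Sertoli lists lay near all genes in the comparison of the libraries in members. None of 16 identity genes, 28 products or 20 junction genes reached 1.5-fold, with medians of 0.04, 0.03 and 0.04. Over all tested genes 1.21% were higher and 0.605% lower, with a median of 0.04, so counts of 0 lie near those shares. *Ctsl*, a protease gene, was at 2465 CPM in the control library and 3393 among Cnot3-cKO members, and *Gja1*, the connexin 43 gene, at 292 and 404, log2 ratios of 0.46 (0.44 to 0.49) and 0.47 (0.39 to 0.54). *Defb36*, a beta defensin gene of a multigene family, was at 423 and 289. Of 17 immediate early genes 3 were at least 1.5-fold higher: *Fos* at 254 and 405 CPM, *Fosb* at 174 and 299, and *Klf2*. The non-cycling cells had ratios of 0.73 and 0.81 for *Fos* and *Fosb*, beside 0.67 and 0.78 in members, and the barcodes of at most 100 UMIs, which hold free RNA, had 1.76 and 1.49. The part of free RNA in these differences was not tested. *Gdnf* was at 31.4 and 40.9 CPM in members, a ratio of 0.38 (0.15 to 0.61), with 0.56 in non-cycling cells.

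The genes that varied most from member to member were ranked by the variance over the mean of thinned counts, the S and G2/M lists aside. *Malat1*, a nuclear long noncoding RNA, came first, with a ratio of 20.9 in control and 25.7 in Cnot3-cKO members and 19.3 and 20.9 in non-cycling cells. *Fcer1g* and *Arhgdib*, genes of blood cells, were at 0 in 99.3% and 98.8% of the control members and reached 22 and 8 thinned UMIs in a cell. Without the immune-gene cells *Fcer1g* had 1 of its 107 UMIs in control members and *Arhgdib* 4 of 31. The actin-binding gene *Tmsb4x*, *Lgals1*, the noncoding RP23-81C12.3 and *Fosb* varied in non-cycling cells too, with control ratios of 6.02, 10.7, 4.48 and 4.68. *Hist1h1b* and *Tubb4b* had ratios of 6.08 and 5.27 in control members against 1.56 and 2.10 in non-cycling cells, and *Hist1h2bc*, a histone gene, 5.53 against 7.55. *Tnni3*, a troponin gene, was seen after thinning in 97.1% of the control members and 96.4% of the non-cycling control cells. It had a median of 6 thinned UMIs in members of both libraries, against 8 in non-cycling control cells and 7 in Cnot3-cKO. Of the control Sertoli cells above the non-cycling median of *Tnni3*, 8.25% (6.73 to 9.98%) were cycling after thinning, and of those at or under it 14.8% (13.2 to 16.6%), with 8.95% and 11.8% in Cnot3-cKO.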

How the data were processed

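Testis cells had been captured with 10x 3′ v3.1 chemistry, and the labels list 4 samples, 2 per genotype, which may be sequencing runs. The authors deposited raw UMI counts for each gene in each barcode, produced by Cell Ranger 3.0.1 on build mm10 per the labels, with the samples of each genotype merged in 1 matrix. The handling of reads that map to more than 1 place is not given in the sources used here, so histone, tubulin, cystatin, glutathione transferase and histocompatibility genes with close copies are uncertain. The members and gene lists were chosen with earlier results of these data known.

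Counts were summed over the cells of a class in each library and scaled to 1000000 UMIs (CPM). Fold changes are log2 ratios of summed CPM with exact conditional 95% intervals, and shares have exact Clopper-Pearson intervals. Genes needed 100 UMIs over the 2 classes compared. A gene was counted at 2-fold in both libraries, or at 1.5-fold between genotypes. No test was made, since cells are not replicates and each genotype has 1 library. For shares of cells in which a gene was seen, each cell was thinned to 8000 UMIs. The shares given with the genotype ratios are the exception and used all UMIs of a cell. Doublets were called with Scrublet in scanpy 1.11.5 and kept, and leaving them out was an alternative. The text names the 12 genes each way with intervals furthest from 0 in both libraries for the cycle, 8 each way for genotype, the 10 most variable genes and the members of the lists with the widest ratios or best known roles. The code for ratios and intervals was checked on simulated counts. Other limits on UMIs, mitochondrial share, Sertoli, stromal and germ genes, depth and minimum counts were tried. Python 3.11.15, numpy 2.4.6, pandas 2.3.3 and scipy 1.17.1 were used.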

Additional observations from a re-analysis of the deposited data

Results flagged for a closer look

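Over all tested genes, 35 had counting intervals on opposite sides of 0. Of 10720 genes, 15 had them between the libraries for cycling over non-cycling cells. Of 9754 genes, 20 more had them between the classes for genotype. Counting error alone can give such genes among so many, and none of these differences was tested. The 5 of them in a gene list or named above are given here. *E2f7*, a repressor of E2F targets, was at 0.286 on the log2 scale (Cnot3-cKO over control) in cycling and −1.16 in non-cycling Sertoli cells. *Mcm2*, a helicase subunit gene, had 0.2 in cycling and −0.178 in non-cycling cells, and *Espn*, an actin-bundling gene, 0.131 and −0.068. *Tnni3* had 0.0674 in cycling and −0.05 in non-cycling cells. *Cdk6*, the partner of D-type cyclins, had a log2 ratio of cycling over non-cycling cells of −0.172 in control and 0.175 in Cnot3-cKO.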

How the results depend on the processing

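No main result past its fold limit reversed its direction under the alternatives run. The median of the junction genes in control, under that limit, went from 0.08 to −0.00 in cells of 10000 to 20000 UMIs. Single genes did reverse between genotypes once the immune-gene cells were left out, each on few UMIs. *Pf4* fell from 17.4 to 0.306 CPM among Cnot3-cKO members, under the 0.374 of control members, on 3 UMIs in each library. *Cd52*, lower in Cnot3-cKO over all members, kept 0 control UMIs against 1 from Cnot3-cKO. *Fcer1g*, also lower there over all members, kept 1 against 11. Of the main results under alternatives, 218 values moved by less than their spread against 34 that moved more. The share of cycling cells in control and Cnot3-cKO was 16.2% and 14.3% with a limit of 2 UMIs of *Mki67* and *Top2a*, 12.3% and 10.5% with a limit of 5, 12.2% and 10.5% on thinned cells, 19.99% and 16.9% with a mitochondrial limit of 10%, and 11.6% and 10.4% with a Sertoli limit of 0.6%. Genes at least 2-fold higher in cycling cells numbered 893 with no minimum on UMIs, and lower genes 188. The lower genes numbered 33 both with the limit of 2 UMIs and with the mitochondrial limit of 10%. With the immune-gene cells left out, an alternative chosen after seeing the data, the counts were 503 and 59. In cells of 10000 to 20000 UMIs the median log2 ratio of the S list was 1.80 in control and 2.05 in Cnot3-cKO, and that of the chromatin and tubulin list 1.68 and 1.65. With non-cycling cells taken as those under 3 UMIs, the S list had 1.59 in Cnot3-cKO, the G2/M list 5.20 and 5.13, and the chromatin and tubulin list 1.70 and 1.68. The S list in Cnot3-cKO had 1.97 with the Sertoli limit of 0.6% and 1.98 as a mean of per-cell CPM. The chromatin and tubulin list had 1.72 in control and 1.62 in Cnot3-cKO with the limit of 2 UMIs, and in Cnot3-cKO 1.81 with the limit of 5, 1.80 on thinned cells and 1.67 with the Sertoli limit of 0.6%. Between genotypes, 220 genes were higher and 140 lower with a minimum of 50 UMIs, and 1429 and 1133 with none. The cause of these movements was not tested, except that a lower minimum admits more genes. No paired analysis was possible because the samples of each genotype are merged into 1 matrix, and no replicate could be left out, since none can be told from another.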
